A study of Rattus norvegicus with 9 samples.

Results

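Genes linked to the transcription factor Nrf2, among them genes of NADPH use and of the pentose phosphate pathway, were followed in rat liver. The genes were set by name as Keap1, Nqo1, Hmox1, Txnrd1, Srxn1, Gsr, Pgd, Taldo1 and Tkt, and 7 of these 9 symbols had a row among the 32883 genes of the deposited table. Srxn1 and Pgd had no row under their symbols and were not analysed here. Liver RNA of 9 male Sprague-Dawley rats was sequenced, 1 library a rat, from 3 normal control rats, 3 rats of the DEN model and 3 of PZH administration. Normal control rats received a normal diet. The DEN model and PZH administration rats shared weekly intraperitoneal injections of 0.01% diethylnitrosamine (DEN), a liver carcinogen, over an injection period of 16 weeks, to which PZH administration added PZH (Pien-Tze-Huang), a medicine of traditional Chinese origin. Which PZH dose the sequenced rats had, their age and their time of collection are not given in the sources used here, nor whether the liver pieces held tumour nodules. The study describes a low and a high PZH dose and collection of rats at several times up to 16 weeks. The sequenced rats may therefore differ in dose and in length of DEN exposure. The groups were read from the first letter of each rat's title (N, M and G), because the tag for treatment gives PZH for M and G rats alike and so goes against the design described in the study.

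Nrf2, encoded by Nfe2l2, is held in check by Keap1, a cysteine-rich adaptor that delivers it for degradation. When electrophiles or oxidants modify Keap1, Nrf2 accumulates and binds antioxidant response elements beside genes of detoxification, of the thioredoxin and glutathione systems and of the pentose phosphate pathway, whose first steps form NADPH. Raised Nrf2 target expression is well known in chemically induced preneoplastic and tumour tissue of rat liver.

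Each library held between 14922973 and 27161496 counted reads, and rat 27 of the PZH administration group was the deepest. The member genes had between 228 and 17626 counts in every rat, so none was near the limit of detection. Values are given as CPM, the read count scaled to a common library size with TMM factors (a scaling that takes most genes as unchanged), unless stated as FPKM, which is also divided by transcript length and permits levels of different genes to be compared. TMM factors were 0.731 to 0.799 in normal control, 1.21 to 1.58 in DEN model and 0.863 to 0.941 in PZH administration rats. Without these factors the median change over all genes shifted, on the log2 scale, by 0.87 in DEN model against normal control rats, by -0.67 in PZH administration against DEN model rats and by 0.23 in PZH administration against normal control rats, and differences in CPM and log2 fold changes below are relative to the TMM scaling unless library totals are named. FPKM is scaled by library totals and holds no TMM factors, so it is used to set genes beside each other within a group and its levels in different groups are not on the TMM scale. Of all genes called in DEN model against normal control rats 55.3% were higher with TMM and 89.5% with library totals, and in PZH administration against DEN model rats the share was 45.7% with TMM and 8.89% with library totals. Hepatocyte markers (10 genes, among them Alb, Apoa1 and Ttr) summed to between 164423 and 177760 CPM in normal control rats, 33975 and 79039 CPM in DEN model rats and 131990 and 176827 CPM in PZH administration rats, and no marker of this list was at 0 counts in any group. Summed markers of biliary cells (7 genes) ranged from 30.6 to 43.1, from 270 to 789 and from 99.9 to 132 CPM in the same order of groups, those of proliferating cells (8 genes) from 38.3 to 45.9, from 179 to 256 and from 65.8 to 130 CPM, those of stellate cells and myofibroblasts (8 genes) from 195 to 323, from 1050 to 3210 and from 599 to 725 CPM, and those of lymphocytes (8 of 9 listed genes) from 25.3 to 47.6, from 79.9 to 125 and from 38.2 to 46.8 CPM. The biliary, proliferating, stellate and lymphocyte sums were highest in DEN model rats, as were Nqo1, Txnrd1, Gsr, Tkt and Taldo1, whereas the hepatocyte sum was lowest there. Summed endothelial markers (7 of 8 listed genes) overlapped between all groups, from 346 to 438, from 229 to 435 and from 308 to 435 CPM. The part of these cell types in the members' values was not tested. In whole tissue, fewer cells of a type and less RNA per cell cannot be told apart.

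Genes are described as called, or as having risen or fallen, where the Benjamini-Hochberg adjusted p of edgeR's quasi-likelihood test, taken over every gene tested, was under 0.05. Between DEN model and normal control rats, 5 of the 7 members rose, Nqo1, Txnrd1, Tkt, Taldo1 and Gsr, and 25.3% of all 14255 tested genes did so. The number of members that fell was 0 by this test, where 20.5% of all genes fell. It was also 0 by DESeq2, which called 3089 of 14255 genes lower. At an unadjusted p under 0.05, a rule with no share of all genes given here, 1 member (Keap1) was lower. The median log2 fold change was 1.40 over the 7 members and 0.03 over all genes. In PZH administration against DEN model rats, 3 of the 7 fell (Nqo1, Txnrd1 and Tkt), against 10.3% of 14272 tested genes. By the same test 0 rose, against 8.72% of all genes. DESeq2 also called 0 members higher, against 1812 of 14272 genes. At an unadjusted p under 0.05 again 0 were higher, with no share of all genes given here for that rule. The edgeR shares of all genes moved with single rats, since without DEN model rat 13 the genes called after PZH numbered 119 higher and 152 lower in place of 1245 and 1477. In the same fit the members called lower numbered 0 in place of 3. The median log2 fold change was -0.77 over the members and 0.01 over all genes. In PZH administration against normal control rats, Nqo1 and Gsr were higher, against 4.07% of 13348 tested genes. By edgeR 0 members were lower, against 1.15% of all genes, and 0 by DESeq2, against 425 of 13348 genes. At an unadjusted p under 0.05 also 0 were lower, with no share of all genes given here for that rule. Ranges of single rats were apart for 5 members in the DEN model against normal control rats, all higher, where 31.4% of all genes were apart upward and 27.4% downward. After PZH they were apart for 6 members, all but Keap1 and all lower than in DEN model rats, where 22.5% of all genes were apart downward and 18.4% upward. Against normal control rats 5 members of PZH administration rats were apart, all higher, where 13.6% of all genes were apart upward and 10.6% downward. These comparisons share groups of rats, so their values are given side by side and are not independent.

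**Figure D1:**
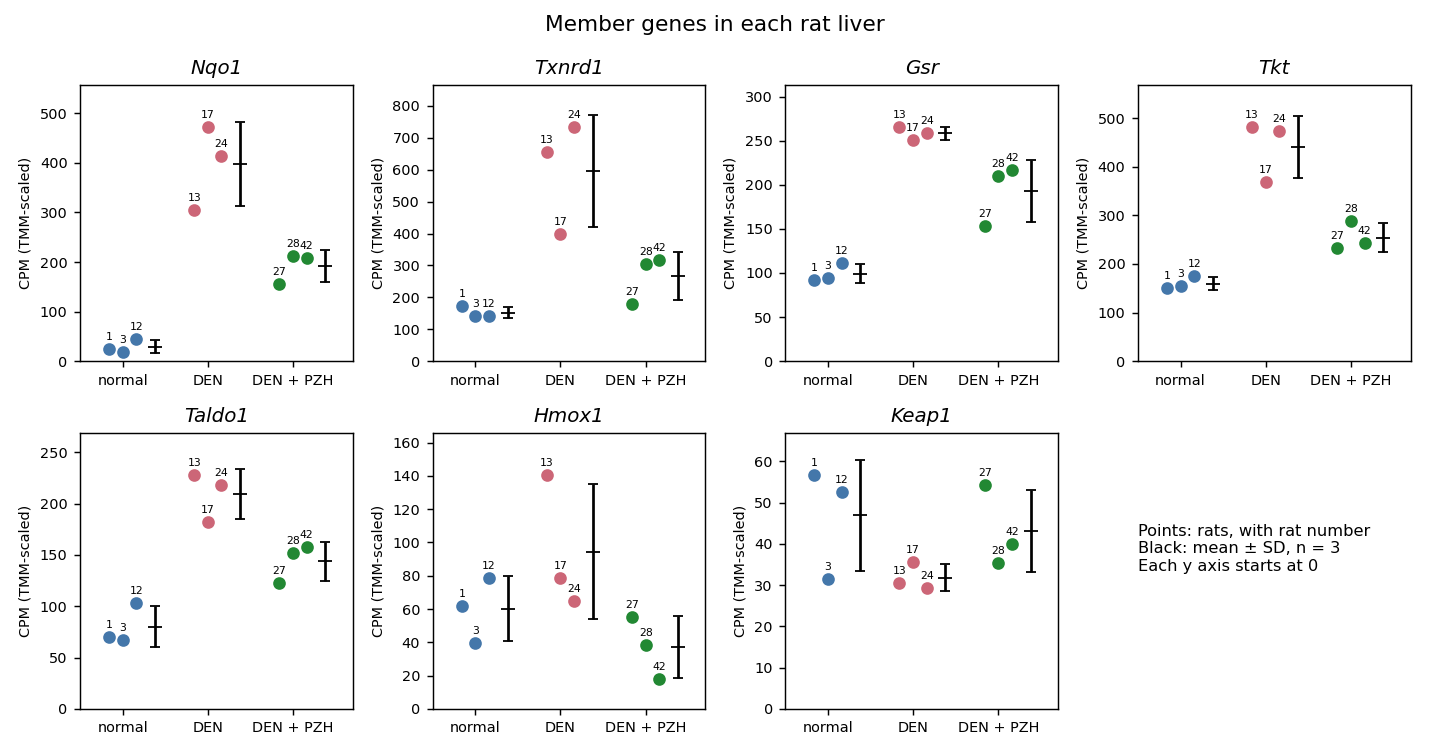
TMM-scaled CPM (y axis, starting at 0) of the 7 member genes in each rat, by group (x axis), with rat numbers over the points and the mean ± SD of 3 rats in black. Nqo1 lies between 19.1 and 44.3 CPM in normal control rats and between 305 and 472 CPM in DEN model rats, whereas the groups overlap for Keap1 in every comparison.

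Nqo1 encodes NAD(P)H quinone dehydrogenase 1, which reduces quinones in a single step with NADPH or NADH and is a classic Nrf2 target. In the coordinates of the deposited table, whose genome build is not given in the sources used here, the gene (ENSRNOG00000012772) lies on chromosome 19 from 38422164 to 38437180. Nqo1 was at 24.9, 19.1 and 44.3 CPM in normal control rats 1, 3 and 12, at 305, 472 and 414 CPM in DEN model rats 13, 17 and 24, and at 155, 212 and 208 CPM in PZH administration rats 27, 28 and 42. No group overlapped another, and the PZH administration rats lay between the other two groups. Nqo1 rose in the DEN model by a log2 fold change of 3.77 (standard error, abbreviated SE, 0.37; adjusted p = 0.00023 in edgeR's test), a 13.6-fold difference. The study's own thresholds were a log fold change above 2, read here as log2 because no base is given, together with P under 0.001. In the DEN model 1 member, Nqo1, passed them upward, as did 8.81% of all genes, and 0 passed downward, as did 3.49%. With library totals 5 members passed them upward, a count with no share of all genes beside it here, so it cannot be read as particular to the members. That scaling moved the median log2 fold change over all genes from 0.03 to 0.89, and the genes called higher at adjusted p under 0.05 from 3612 to 8126. In PZH administration against DEN model rats the Nqo1 log2 fold change was -1.03 (SE 0.25, adjusted p = 0.027), a 2.04-fold lower level. There 0 members passed the study's thresholds in either direction, beside 1.08% of all genes upward and 1.35% downward. With library totals 1 member passed downward, with no share of all genes beside it here and a median over all genes of -0.67. At adjusted p under 0.05 that scaling moved the genes called lower from 1477 to 5696, so this count too cannot be read as particular to the members. Against normal control rats, Nqo1 remained 6.55-fold higher in PZH administration rats, with a log2 fold change of 2.71 (SE 0.32, adjusted p = 0.0041). It was again the 1 member past the study's thresholds, which 2.16% of all genes passed upward and 0.165% downward.

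By mean length-scaled level, Nqo1 ranked sixth of the 7 members in normal control rats, at 14.6 ± 7.01 FPKM (SD, n = 3), and first in DEN model rats, at 354 ± 63.1 FPKM (SD, n = 3). Its range overlapped that of the neighbour in this order both times, Hmox1 and Keap1 in normal control rats and Tkt in DEN model rats. Its FPKM exceeded that of 78.1% of tested genes in normal control rats and that of 98.8% in DEN model rats. In PZH administration rats it stood at 111 ± 22.9 FPKM (SD, n = 3), level with Tkt at 112 ± 16.0 FPKM (SD, n = 3). In CPM the spread among normal control rats was wide, with a coefficient of variation of 44.8%, and rat 12 was 2.32 times rat 3.

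Txnrd1 encodes cytosolic thioredoxin reductase, a selenoprotein that passes electrons from NADPH to thioredoxin. Its gene (ENSRNOG00000009088) lies on chromosome 7 from 26946125 to 26984400 in the coordinates of the table. Txnrd1 was at 172, 142 and 142 CPM in normal control rats 1, 3 and 12, at 657, 398 and 734 CPM in DEN model rats 13, 17 and 24, and at 179, 304 and 317 CPM in PZH administration rats 27, 28 and 42. The DEN model rats lay above all others, and rat 27 lay close to the highest normal control rat. The log2 fold change in the DEN model was 1.99 (SE 0.28, adjusted p = 0.0010 in edgeR's test), a 3.97-fold rise. After PZH it was -1.14 (SE 0.32, adjusted p = 0.043). PZH administration rats were 1.76-fold above normal control rats, which did not pass the test (log2 fold change 0.82, 95% interval 0.26 to 1.38, adjusted p = 0.10).

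RefSeq windows of 300 bases around the start site (build GRCr8, most of the window lying before the start) were held for 5 of the 7 members, in 6 windows, and not for Gsr and Hmox1. They were searched on both strands for the core letters of the antioxidant response element, TGACNNNGC, which 12.1% of 33469 windows of this length hold. The letters were found in 1 of the 6 windows, that of Txnrd1 at chr7:22755855-22756154 (minus strand), from 78 to 70 bases before the start site and on the strand opposite to the gene. The overlapping AP-1 letters TGANTCA, present in 7.33% of windows, were found in none of the 6. The Txnrd1 window is shown with the match in capitals (its reverse complement reads TGACAAAGC), beside the window of Nqo1 at chr19:52220218-52220517 (minus strand), the member with the largest rise, in which these letters did not occur. A match is a description of letters, and its absence says nothing about elements outside the window.
Txnrd1: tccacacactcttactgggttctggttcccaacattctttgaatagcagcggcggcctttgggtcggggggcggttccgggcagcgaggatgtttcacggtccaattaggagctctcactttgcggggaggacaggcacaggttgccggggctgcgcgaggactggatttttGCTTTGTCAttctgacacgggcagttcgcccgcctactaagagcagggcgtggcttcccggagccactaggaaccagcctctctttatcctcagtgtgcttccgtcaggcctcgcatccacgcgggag
Nqo1: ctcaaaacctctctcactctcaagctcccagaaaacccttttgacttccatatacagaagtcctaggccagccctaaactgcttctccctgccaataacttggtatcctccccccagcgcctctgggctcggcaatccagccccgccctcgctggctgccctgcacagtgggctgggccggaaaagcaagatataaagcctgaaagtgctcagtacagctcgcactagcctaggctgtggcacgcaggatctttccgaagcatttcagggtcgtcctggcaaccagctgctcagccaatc

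Gsr encodes glutathione reductase, which uses NADPH to return oxidized glutathione to its reduced form. Its gene (ENSRNOG00000014915) lies on chromosome 16 from 62197617 to 62241361 in the table's coordinates. Gsr was at 92.1, 94.2 and 111 CPM in normal control rats 1, 3 and 12, at 266, 251 and 259 CPM in DEN model rats 13, 17 and 24, and at 153, 210 and 217 CPM in PZH administration rats 27, 28 and 42. The 3 DEN model rats were nearly level, with a coefficient of variation of 2.83%, the lowest of any member in any group, and the median over 13546 genes of at least 1 CPM in that group was 16.7%. Gsr rose 2.63-fold in the DEN model (log2 fold change 1.40, SE 0.19, adjusted p = 0.00081 in edgeR's test). After PZH every rat was below every DEN model rat, yet the difference did not pass the test (log2 fold change -0.40, 95% interval -0.87 to 0.08, adjusted p = 0.21). Against normal control rats Gsr was 1.96-fold higher in PZH administration rats (log2 fold change 0.97, SE 0.21, adjusted p = 0.031). Leaving out any 1 rat other than rat 27 ended this last call, with adjusted p between 0.077 and 0.14.

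Tkt and Taldo1 encode transketolase and transaldolase, the enzymes of the non-oxidative branch that return pentose phosphates to glycolysis. Tkt (ENSRNOG00000016064) lies on chromosome 16 from 6609668 to 6634595, and Taldo1 (ENSRNOG00000018367) on chromosome 1 from 214375515 to 214385885. Tkt was at 150, 154 and 175 CPM in normal control rats 1, 3 and 12, at 482, 368 and 473 CPM in DEN model rats 13, 17 and 24, and at 233, 288 and 243 CPM in PZH administration rats 27, 28 and 42. The groups did not overlap. Tkt rose 2.79-fold in the DEN model (log2 fold change 1.48, SE 0.22, adjusted p = 0.0012 in edgeR's test) and was 1.70-fold lower after PZH (log2 fold change -0.77, SE 0.22, adjusted p = 0.044). In PZH administration against normal control rats its log2 fold change was 0.68 (95% interval 0.26 to 1.10, adjusted p = 0.075).

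Taldo1 was at 70.1, 67.1 and 103 CPM in normal control rats 1, 3 and 12, at 228, 182 and 218 CPM in DEN model rats 13, 17 and 24, and at 122, 151 and 158 CPM in PZH administration rats 27, 28 and 42. These groups did not overlap either. Taldo1 rose 2.64-fold in the DEN model (log2 fold change 1.40, SE 0.23, adjusted p = 0.0019 in edgeR's test). After PZH its log2 fold change was -0.52 (95% interval -0.97 to -0.06, adjusted p = 0.10), and against normal control rats it was 0.85 (95% interval 0.35 to 1.36, adjusted p = 0.065), so neither difference passed. By FPKM, Tkt and Taldo1 were the 2 most abundant members in normal control rats, at 59.7 ± 6.85 and 50.4 ± 14.3 FPKM (SD, n = 3 each), and their ranges overlapped.

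Hmox1 encodes haem oxygenase 1, which opens haem to biliverdin, iron and carbon monoxide and is expressed in macrophages as well as in stressed hepatocytes. Its gene (ENSRNOG00000014117) lies on chromosome 19 from 14508616 to 14515456. Hmox1 was at 61.7, 39.8 and 78.7 CPM in normal control rats 1, 3 and 12, at 141, 78.4 and 64.6 CPM in DEN model rats 13, 17 and 24, and at 55.4, 38.1 and 17.9 CPM in PZH administration rats 27, 28 and 42. DEN model rats overlapped normal control rats, and PZH administration rats all lay below the lowest DEN model rat. The log2 fold change was 0.67 in the DEN model (95% interval -0.10 to 1.44, adjusted p = 0.14 in edgeR's test; 0.27 without rat 13) and -1.31 after PZH (95% interval -2.31 to -0.31, adjusted p = 0.070). With library totals both passed, at 1.53 (adjusted p = 0.0047) and -2.02 (adjusted p = 0.0073), and the second also passed with DESeq2 (-1.30, adjusted p = 0.015) and with all 9 rats in one fit (-1.34, adjusted p = 0.046). Hmox1 was the most variable member among PZH administration rats, with a coefficient of variation of 50.4%. Summed macrophage markers (12 of 13 listed genes, none at 0) were 871, 797 and 1509 CPM in normal control rats 1, 3 and 12, 1039, 865 and 815 CPM in DEN model rats 13, 17 and 24, and 1012, 648 and 374 CPM in PZH administration rats 27, 28 and 42. Within each of the 3 groups the rats thus had the same order for Hmox1 and for these markers, and the part of macrophages in the Hmox1 values was not tested. Of the 12 markers, 0 rose and 4 fell in the DEN model with TMM, whereas 7 rose and 1 fell with library totals, and after PZH 4 fell with TMM and 7 with library totals.

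Keap1 encodes the sensor itself, and its gene (ENSRNOG00000020878) lies on chromosome 8 from 22250518 to 22259779. Keap1 was at 56.8, 31.6 and 52.5 CPM in normal control rats 1, 3 and 12, at 30.6, 35.6 and 29.3 CPM in DEN model rats 13, 17 and 24, and at 54.2, 35.3 and 40.0 CPM in PZH administration rats 27, 28 and 42. All 3 groups overlapped. The log2 fold change was -0.54 in the DEN model (95% interval -1.06 to -0.02, adjusted p = 0.082 in edgeR's test), 0.47 after PZH (95% interval -0.01 to 0.95, adjusted p = 0.15) and -0.11 against normal control rats (95% interval -0.69 to 0.47, adjusted p = 0.88). Each of these signs turned with library totals, to 0.30, -0.20 and 0.091, so no direction can be given for Keap1. Without normal control rat 3, the lowest of its group, the difference in the DEN model passed the test at -0.76 (adjusted p = 0.0086). Keap1 had the lowest mean FPKM of the members in all 3 groups, though its range overlapped that of Nqo1 in normal control rats and that of Hmox1 in PZH administration rats, at 11.6 ± 3.77, 14.2 ± 0.49 and 12.3 ± 2.25 FPKM (SD, n = 3 each, scaled by library totals), in the order normal control, DEN model, PZH administration.

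**Figure D2:**
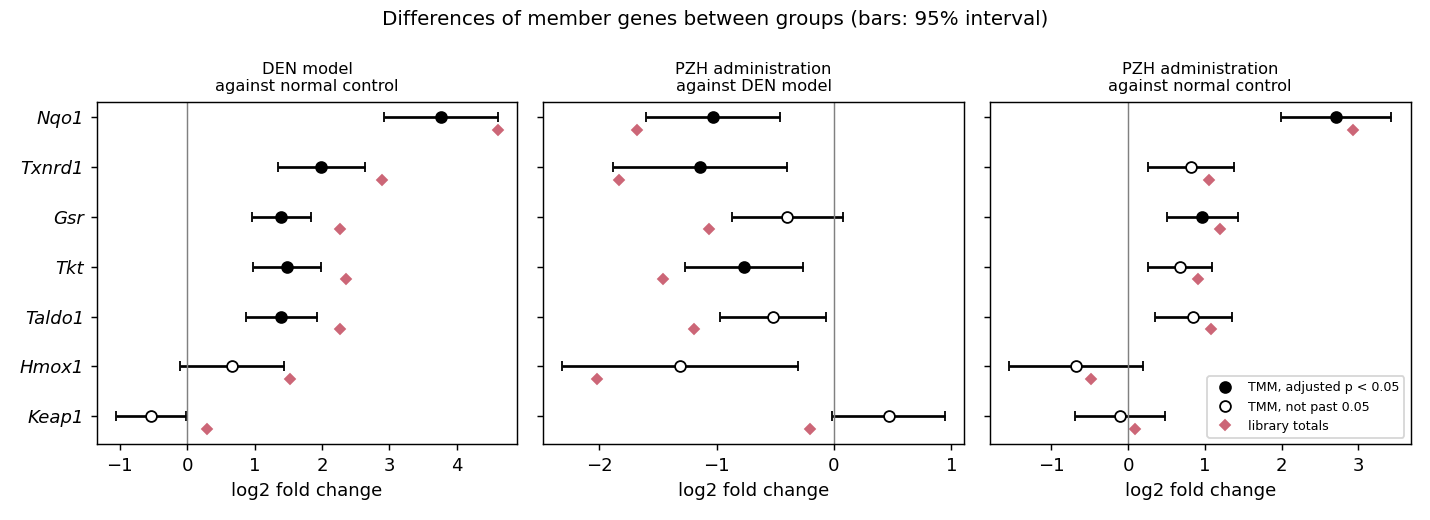
Log2 fold change (x axis) of each member (y axis) in the 3 comparisons, with 95% intervals from edgeR's quasi-likelihood fit and TMM scaling in black (filled where the adjusted p was under 0.05) and the library-total value as a red diamond. The 5 members called in DEN model against normal control rats lie between 1.40 and 3.77, and the diamonds of Keap1 stand on the other side of 0.

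The falls after PZH were called under fewer settings than the rises in the DEN model. All 5 rises were called under each of the 13 refits run (other tools, scalings and filters, and 1 rat left out), with log2 fold changes of 1.28 and above. Of the 3 falls after PZH, 0 were called when rat 27, 28 or 42 of the PZH administration group or rat 13 or 24 of the DEN model group was left out, and all 3 were called without DEN model rat 17. Over all genes the lower calls went from 1477 to 1183, 670, 597, 152 and 449 without rats 27, 28, 42, 13 and 24, and to 1725 without rat 17. With no filter on low counts Tkt was not called (adjusted p = 0.058 in edgeR's test). Over these fits the log2 fold change stayed below -0.70 for all 3 genes, with adjusted p up to 0.083 for Nqo1, 0.14 for Txnrd1 and 0.17 for Tkt in edgeR's test. With library totals 6 of the 7 members were called lower after PZH, Keap1 not being called, beside 5696 of all 14272 genes.

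Individual rats stood apart in the same way for several members. Among PZH administration rats, rat 27 had the lowest Nqo1, Txnrd1, Gsr, Taldo1 and Tkt and the highest Keap1 and Hmox1, and it also had the highest hepatocyte marker sum of its group (176827 CPM, against 141796 and 131990 CPM in rats 28 and 42) and the lowest sum of proliferation markers (65.8 CPM, against 130 and 122 CPM). Among DEN model rats, rat 17 had the lowest Txnrd1, Gsr, Taldo1 and Tkt but the highest Nqo1, with the highest hepatocyte marker sum (79039 CPM, against 47438 and 33975 CPM in rats 13 and 24). The part of cell composition in these values was not tested. Without rat 27, 5 members in place of 2 were higher in PZH administration than in normal control rats, Nqo1, Gsr, Taldo1, Tkt and Txnrd1, while the calls over all genes went from 543 to 787 higher and from 153 to 539 lower.

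Ratios between members inside a rat do not depend on how libraries were scaled, and 4 were compared as log2 FPKM ratios, over 12 comparisons of groups. With 3 rats in each group, the smallest p of a two-sided exact permutation test is 0.1. The FPKM of Nqo1 was 0.879, 1.21 and 1.69 times that of Keap1 in normal control rats 1, 3 and 12, 20.0, 26.6 and 28.2 times in DEN model rats 13, 17 and 24, and 5.73, 12.0 and 10.4 times in PZH administration rats 27, 28 and 42. The groups were apart in all 3 comparisons, with log2 differences of 4.34, -1.46 and 2.88 (exact permutation p = 0.1 each, adjusted p = 0.15). The FPKM of Hmox1 was 2.19, 2.55 and 3.03 times that of Keap1 in normal control rats 1, 3 and 12, 9.28, 4.44 and 4.45 times in DEN model rats 13, 17 and 24, and 2.06, 2.18 and 0.907 times in PZH administration rats 27, 28 and 42. The log2 difference was 1.15 in the DEN model and -1.83 after PZH (exact permutation p = 0.1 each, adjusted p = 0.15). Between PZH administration and normal control rats it was -0.68 (exact permutation p = 0.1, adjusted p = 0.15), but rat 28 lay just under rat 1, and without rat 42 the difference was -0.27. The FPKM of Txnrd1 was 1.52, 0.974 and 1.74 times that of Gsr in DEN model rats 13, 17 and 24 and 0.719, 0.890 and 0.898 times in PZH administration rats 27, 28 and 42, with no overlap (log2 difference -0.72, exact permutation p = 0.1, adjusted p = 0.15). In the DEN model that ratio overlapped the normal control rats (log2 difference 0.54, exact permutation p = 0.2). Taldo1 and Tkt kept close ratios, between 0.730 and 0.989 in normal control rats and between 0.772 and 0.832 in DEN model rats (log2 difference -0.05, exact permutation p = 0.9), and the ratio after PZH was 0.880 to 1.09 (log2 difference 0.25, exact permutation p = 0.1, adjusted p = 0.15), with a difference of 0.14 without rat 42. PZH administration and normal control rats overlapped for Taldo1 to Tkt (log2 difference 0.19, exact permutation p = 0.3) and for Txnrd1 to Gsr (-0.18, exact permutation p = 0.4).

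**Figure D3:**
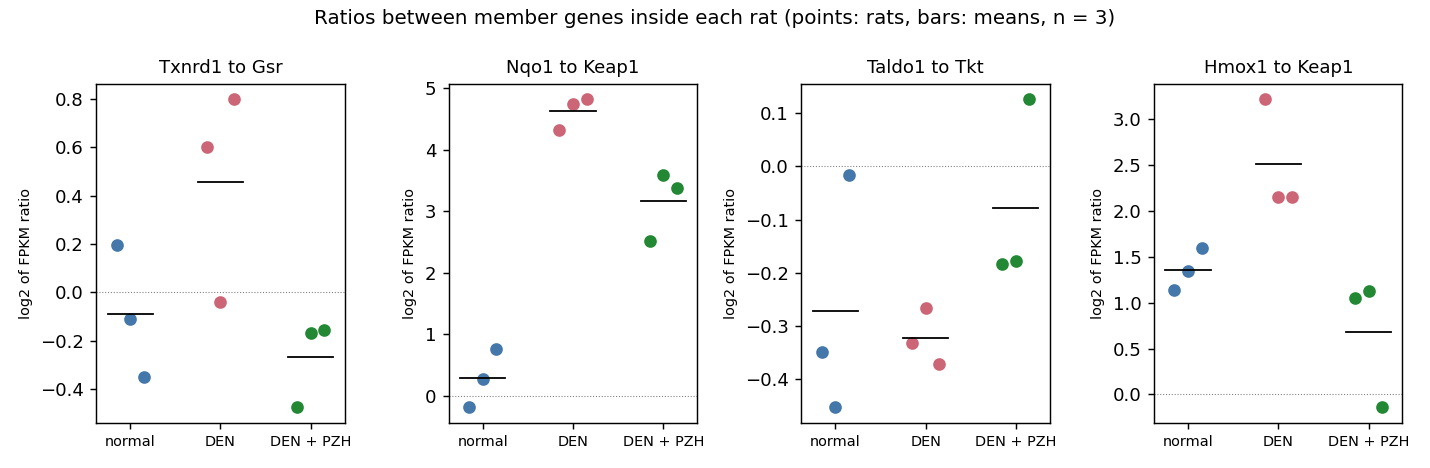
Log2 of the FPKM ratio (y axis) between pairs of members inside each rat, by group (x axis), with points for rats and bars for the means of 3 rats. The Nqo1 to Keap1 ratio separates all 3 groups, and the Taldo1 to Tkt ratio of DEN model rats lies within the range of normal control rats.

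The other genes of these pathways were taken from 5 lists, to be read beside all genes. With TMM 25.3% of all genes rose and 20.5% fell in the DEN model (median 0.03 on the log2 scale). After PZH 8.72% rose and 10.3% fell (median 0.01). Library totals gave 8126 higher and 958 lower of 14255 in the DEN model (median 0.89), and 556 and 5696 of 14272 after PZH (median -0.67). In PZH administration against normal control rats 4.07% were higher and 1.15% lower with TMM. DESeq2 called 1812 higher and 1969 lower of 14272 genes after PZH, and 895 and 425 of 13348 in PZH administration against normal control rats. In the list of Nrf2 control genes (12 of 13 tested), 1 rose and 2 fell in the DEN model, with a median of -0.26 on the log2 scale, and with library totals 5 rose, 0 fell and the median was 0.57. Nfe2l2 itself was at 96.6, 107 and 63.3 CPM in normal control rats 1, 3 and 12, at 133, 121 and 117 CPM in DEN model rats 13, 17 and 24, and at 88.4, 122 and 126 CPM in PZH administration rats 27, 28 and 42. Every DEN model rat was above every normal control rat, but the difference did not pass with TMM (log2 fold change 0.49, adjusted p = 0.10 in edgeR's test), while it did with library totals (1.36, adjusted p = 0.00093) and with upper-quartile factors (0.63, adjusted p = 0.049). After PZH the Nfe2l2 log2 fold change was -0.12 (adjusted p = 0.71), and it was called at -0.78 with library totals (adjusted p = 0.030) and with limma (adjusted p = 0.028). Maff, a small Maf partner, rose from 4.18 ± 2.20 to 13.7 ± 2.53 CPM (SD, n = 3; adjusted p = 0.0054). Bach1, a repressor that competes at the same elements, fell from 65.4 ± 14.5 to 30.9 ± 1.90 CPM (SD, n = 3; adjusted p = 0.0030), and Dpp3, a Keap1-binding peptidase, from 48.2 ± 11.5 to 31.6 ± 0.859 CPM (SD, n = 3; adjusted p = 0.037). With library totals neither Bach1 (log2 fold change -0.20) nor Dpp3 (0.26) passed, and the sign of Dpp3 turned. Dpp3 kept its call under 2 of 13 refits, DESeq2 and without rat 3. After PZH, 0 of the 12 were called by edgeR or by DESeq2, with 1 lower at an unadjusted p under 0.05, whereas with library totals 0 rose and 3 fell, with a median of -0.60.

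Among other NADPH and pentose phosphate genes (15 tested), 3 rose and 5 fell in the DEN model, with a median of -0.38 on the log2 scale, and with library totals the counts were 7 and 3 and the median 0.49. After PZH 3 rose and 1 fell, with a median of 0.15, and with library totals 2 rose and 3 fell, with a median of -0.53. Me1, cytosolic malic enzyme, rose from 38.6 ± 15.2 to 92.0 ± 20.7 CPM (SD, n = 3; adjusted p = 0.010 in edgeR's test), while Me3, a mitochondrial malic enzyme, fell from 7.64 ± 0.128 to 2.09 ± 1.35 CPM (SD, n = 3; adjusted p = 0.0083, and 0.099 with library totals). Nadk2, the mitochondrial NAD kinase, fell from 288 ± 88.9 to 81.3 ± 31.6 CPM (adjusted p = 0.0033) and was at 234 ± 39.1 CPM after PZH (SD, n = 3 each; adjusted p = 0.016). Shpk, sedoheptulokinase, was at 19.5 ± 6.73 CPM in the DEN model, below 55.8 ± 14.1 CPM in normal control rats, and at 46.6 ± 8.47 CPM after PZH (SD, n = 3 each), higher after PZH (adjusted p = 0.019). Leaving out DEN model rat 13 or 24 ended the calls of Nadk2 and Shpk after PZH, with adjusted p of 0.057 to 0.081, and leaving out rat 42 ended that of Shpk.

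The thioredoxin and peroxiredoxin list (15 tested) had 2 genes that rose and 6 that fell in the DEN model, with a median of 0.00 on the log2 scale. After PZH it had 1 in each direction, with a median of 0.32. With library totals 7 rose and 3 fell in the DEN model, with a median of 0.83 (0.89 over all genes). After PZH 0 rose and 5 fell at that scaling, with a median of -0.34 (-0.67 over all genes). DESeq2 called 5 higher and 1 lower after PZH, beside 1812 and 1969 of all 14272 genes. Txnrd2, the mitochondrial counterpart of Txnrd1, moved the opposite way in the DEN model, from 23.8 ± 4.33 to 6.47 ± 2.90 CPM (SD, n = 3; adjusted p = 0.0023), and so did the mitochondrial glutaredoxin Glrx5, from 76.7 ± 13.1 to 26.0 ± 8.997 CPM (SD, n = 3; adjusted p = 0.0020). Txnip, an inhibitor of thioredoxin, rose from 114 ± 14.7 to 316 ± 41.6 CPM (adjusted p = 0.00096) and fell to 167 ± 27.1 CPM after PZH (SD, n = 3 each; adjusted p = 0.027), a call lost without rat 27, 28, 42, 13 or 24 (adjusted p = 0.053 to 0.12). Prdx2, a cytosolic peroxiredoxin, rose from 75.2 ± 3.17 to 114 ± 4.25 CPM (SD, n = 3; adjusted p = 0.012, and 0.054 without rat 13). Prdx4, a peroxiredoxin of the endoplasmic reticulum, was at 83.5 ± 16.9 CPM in DEN model rats and 148 ± 22.8 CPM after PZH (SD, n = 3; adjusted p = 0.031). The Prdx4 log2 fold change of 0.85 became 0.21 with library totals (adjusted p = 0.44), and leaving out rat 28, 42, 13 or 24 ended the call (adjusted p = 0.084 to 0.14).

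In the list of haem and iron handling (16 rows tested for 15 genes), 4 rose and 5 fell in the DEN model, with a median of -0.34 on the log2 scale (5 and 0 with library totals, median 0.48), and 3 rose and 0 fell after PZH, where 2 fell at an unadjusted p under 0.05 and 1 by DESeq2. With library totals the counts after PZH were 0 and 5, and the median was -0.33 in place of 0.34 with TMM. Fth1, the ferritin heavy chain, rose from 1265 ± 240 to 3479 ± 501 CPM (SD, n = 3; adjusted p = 0.0074), and Slc48a1, a haem transporter, from 24.98 ± 8.60 to 62.8 ± 6.08 CPM (SD, n = 3; adjusted p = 0.0033). Alad and Cpox, of haem synthesis, fell to 61.3 ± 11.5 and 52.2 ± 10.9 CPM in the DEN model (adjusted p = 0.0017 and 0.0049) and were at 111 ± 8.20 and 87.8 ± 17.1 CPM after PZH (SD, n = 3 each; adjusted p = 0.022 and 0.047). With library totals neither fall of Alad and Cpox in the DEN model passed (log2 fold changes -0.35 and -0.16), nor did their differences after PZH (0.23 and 0.13, adjusted p = 0.34 and 0.64). Leaving out rat 28, 42, 13 or 24 also ended both calls after PZH, and Cpox, near the threshold, was lost under 10 of its 13 refits. Summed red blood cell markers, 7 of whose 12 listed genes had rows, ranged from 302 to 1093 CPM in normal control, from 226 to 2081 CPM in DEN model and from 168 to 244 CPM in PZH administration rats, and their part in the haem genes was not tested.

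Other Nrf2 targets (21 of 22 listed genes tested) included 16 genes that rose and 2 that fell in the DEN model, with a median of 2.06 on the log2 scale, and 12 were higher and 0 lower in PZH administration than in normal control rats by edgeR and by DESeq2, with a median of 1.47. At an unadjusted p under 0.05 these counts were 14 and 0 by edgeR and 14 and 1 by DESeq2. After PZH against the DEN model, 1 was higher and 2 were lower, with a median of -0.27, while library totals gave 0 and 11 with a median of -0.93 and DESeq2 gave 1 and 5. Over all 14272 genes DESeq2 gave 1812 and 1969 in this comparison. Aldh3a1, an aldehyde dehydrogenase, went from 0.0509 ± 0.0881 to 102 ± 43.5 CPM in the DEN model (adjusted p = 3.3e-05) and stood at 90.5 ± 90.5 CPM after PZH (SD, n = 3 each; adjusted p = 0.90). Rat 28 carried the Aldh3a1 mean after PZH, with 24.7, 194 and 53.1 CPM in rats 27, 28 and 42. DEN model rats 13, 17 and 24 were at 98.7, 59.6 and 146 CPM. Slc7a11, the cystine transporter, went from 0.234 ± 0.273 to 341 ± 239 CPM (adjusted p = 0.00029) and to 30.7 ± 27.1 CPM after PZH (SD, n = 3 each; adjusted p = 0.038). Slc7a11 was at 452, 67.1 and 504 CPM in DEN model rats 13, 17 and 24. In PZH administration rats 27, 28 and 42 it was at 5.89, 59.6 and 26.6 CPM, so rat 17 lay close to rat 28. This Slc7a11 difference after PZH was not called without rat 27, 28, 42, 13 or 24 (adjusted p = 0.052 to 0.11), and its log2 fold change then ranged from -2.96 to -4.38. Cbr3, a carbonyl reductase, was at 22.3, 4.36 and 6.99 CPM in DEN model rats 13, 17 and 24 and at 2.03 ± 0.252 CPM after PZH (SD, n = 3; adjusted p = 0.027). Rat 13 carried the Cbr3 mean of the DEN model, and without it the log2 fold change went from -2.44 to -1.46 (adjusted p = 0.076), the call also being lost without rat 24, 27, 28 or 42. Nqo2, the relative of Nqo1 that does not use NADPH, differed in direction from it, falling from 34.9 ± 14.9 to 15.1 ± 5.42 CPM in the DEN model and standing at 33.1 ± 6.13 CPM after PZH (SD, n = 3 each; adjusted p = 0.028 in the DEN model and 0.026 after PZH). With library totals neither Nqo2 difference passed (log2 fold changes -0.36 and 0.53, adjusted p = 0.34 and 0.11), and the fall was also lost without rat 13, 24, 12 or 3 and the rise without rat 28, 42, 13 or 24. Mgst1, microsomal glutathione transferase, fell from 1758 ± 323 to 683 ± 341 CPM in the DEN model (SD, n = 3; adjusted p = 0.024). With library totals the Mgst1 log2 fold change went from -1.35 to -0.55 (adjusted p = 0.14), and leaving out rat 13, 24, 12 or 3 ended the call. These adjusted p-values are from edgeR's test over all genes, and the lists were made with earlier results of these data known.

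**Figure D4:**
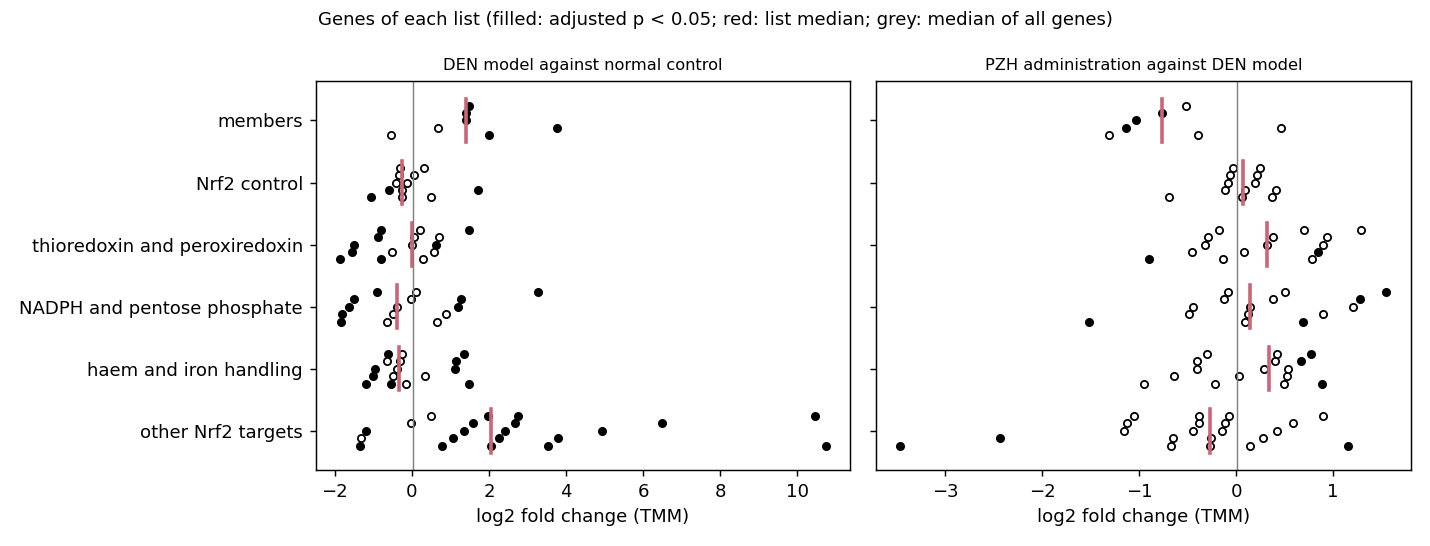
Log2 fold change (x axis, TMM scaling) of the members and of the genes of 5 lists (y axis) in DEN model against normal control rats and in PZH administration against DEN model rats, filled where the adjusted p was under 0.05, with the list median in red and the median of all genes in grey. The medians of the members (1.40) and of other Nrf2 targets (2.06) lie to the right in the DEN model, and those of the remaining lists lie between -0.38 and 0.00.

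The genes most like each member were found by Pearson correlation of log2(CPM + 1) over the 9 rats, among 11895 genes of at least 1 CPM. The rats fall into 3 groups, so the points are not independent, and correlation within groups was not computed. Nqo1 was most like Itga8 (r = 0.987) and Sesn3 (r = 0.986), and Gsr was most like Mki67 (r = 0.996), a marker of proliferation, and Sesn3 (r = 0.993). Txnrd1 was closest to Gstm3 (r = 0.991) and Cdk19 (r = 0.9905), Tkt to Col11a1 (r = 0.997) and Gipc2 (r = 0.995), and Taldo1 to Arhgef2 (r = 0.995) and Cd200 (r = 0.994). Keap1 was closest to Trappc5 (r = 0.998) and Aldh16a1 (r = 0.987), and Hmox1, with lower values, to Fam110b (r = 0.964) and Mcrip1 (r = 0.961).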

How the data were processed

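The authors deposited 1 table with the number of reads counted on each gene and rat, without normalization, and FPKM for the same rats. The deposited FPKM of the members equalled the count divided by a fixed length and by the library total (relative spread of the length at most 1.96e-06). The submitters' processing notes name fastp, HISAT2 2.1.0, StringTie 1.3.3b and edgeR 3.30.3, and the genome build is not given in the sources used here. The table's columns of the authors' own comparisons (group means, fold changes, P and Q) were left out. No gene with more than 1 count in any rat overlapped a member's position in the table.

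Counts were tested in R 4.3.3 with edgeR 4.0.16 (filterByExpr, TMM factors, glmQLFit, glmQLFTest). Each comparison used its own 6 rats and no covariate, and p-values were adjusted over all genes tested by Benjamini-Hochberg. The standard error is the log2 fold change divided by the square root of F. Each p-value weighs the difference between groups against the spread between 3 rats a group, which the fit moderates across all genes. At these depths counts alone do not limit this spread. In simulated counts for DEN model against normal control rats, 100 of 100 genes shifted by 2 on the log2 scale, 19 of 100 shifted by 1 and 7 of 12571 unchanged genes were called among 12771 tested genes. The simulation started from normal control means, gave every gene the same relative spread between rats and changed only 200 genes. Its counts are therefore not the power or error rate of the real comparison.

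The members and lists were chosen with earlier results of these data known. Named were all members, the 2 highest and 2 lowest called genes of each list in DEN model against normal control and in PZH administration against DEN model rats, Nfe2l2, and the 2 genes most correlated with each member. A gene that this rule also names is not reported here. The planned ratio of Pgd to Tkt could not be formed. Alternatives were DESeq2 1.42.0, library totals, upper-quartile factors, other filters, all 9 rats in one fit, limma 3.58.1 on log2(FPKM + 1), the study's thresholds and leaving out each rat.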

Additional observations from a re-analysis of the deposited data

How the results depend on the processing

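No paired analysis was possible because the rats' numbers differ between the groups. The log2 fold changes of Keap1 turned to 0.30, -0.20 and 0.091 with library totals and to 0.32, -0.20 and 0.12 with limma on log2(FPKM + 1), in DEN model against normal control, PZH administration against DEN model and PZH administration against normal control rats. That of Dpp3 in the DEN model turned to 0.26 and 0.27 under the same 2 settings. Leaving out 1 rat turned Keap1 in PZH administration against normal control rats to 0.020 (without rat 28) and 0.025 (without rat 1; range -0.32 to 0.025), Nfe2l2 after PZH to 0.028 (without rat 27; range -0.19 to 0.028) and the Taldo1 to Tkt ratio in the DEN model to a log2 difference of 0.077 (without rat 12; range -0.14 to 0.077).

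Members called higher in the DEN model numbered 5, and 6 with library totals or limma and 1 by the study's thresholds. Members called lower there numbered between 0 and 1 when a rat was left out. Members called lower after PZH numbered 3, and 6 with library totals or limma, 0 by the study's thresholds and between 0 and 3 without 1 rat. Members higher in PZH administration than in normal control rats numbered 2, and 5 with DESeq2 or library totals, 4 with limma, 1 by the study's thresholds and between 1 and 5 without 1 rat, while genes called higher there over all genes went from 543 to 895 with DESeq2, 818 with library totals and 724 with limma. By the study's thresholds with library totals, 5 members were higher in the DEN model and 1 was lower after PZH. No share of all genes past these thresholds at that scaling is given here, so these counts cannot be read as particular to the members. The cause of these moves in the counts was not tested. Over all genes, library totals moved the calls in the DEN model from 3612 higher and 2917 lower to 8126 and 958, and after PZH from 1245 and 1477 to 556 and 5696. Leaving out 1 rat moved the calls after PZH to between 119 (without rat 13) and 1594 higher and between 152 (without rat 13) and 1725 lower, with 276 and 449 without rat 24, 508 and 670 without rat 28 and 624 and 597 without rat 42. In PZH administration against normal control rats the 543 higher calls ranged from 164 (without rat 1) to 787 and the 153 lower calls from 30 (without rat 28) to 539 (without rat 27). Of the other named genes' values under an alternative, 289 kept direction and call, 77 lost the call, 6 gained it and 3 turned. The members' depth was not limiting, since their lowest count was 228.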
